A study of Mus musculus with 52 samples.

Results

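The imprinted Dlk1-Dio3 cluster of mouse chromosome 12 is a run of microRNA (miRNA) genes, and 39 of its precursors were followed here among the 1187 precursors measured in gonadal white fat. They were chosen by name as members of the cluster, by a rule that reads no measured value. Earlier results of these data were known when the list was made. Expression was read by small RNA sequencing in 52 libraries, 25 from females and 27 from males, of the C57BL/6 strain at 6 months of age. Of these, 7 came from wild type mice (WT). The others came from heterozygous knock-in mice with a huntingtin (Htt) gene whose CAG repeat number gives the allele its name: Q20 (8 libraries), Q80 (8), Q92 (7), Q111 (7), Q140 (7) or Q175 (8). Each genotype was split by sex into groups of 4 libraries, except WT females, Q111 females, Q140 females and Q92 males with 3. The tissue was labelled only as white fat around the gonad, which in males lies along the epididymis and in females around the ovary. Sex and fat depot can therefore not be told apart.

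In this cluster the protein-coding genes Dlk1, Rtl1 and Dio3 are expressed from the paternal chromosome, and the noncoding RNAs Meg3, the transcript antisense to Rtl1, Rian and Mirg, with the miRNAs they carry, from the maternal one. Dlk1, also called Pref-1, is a surface protein of preadipocytes that holds back their differentiation into fat cells. A miRNA pairs with messenger RNAs mainly through its seed, bases 2 to 8 counted from its 5′ end. The miRNAs antisense to Rtl1 pair with Rtl1 messenger RNA along their full length and can direct its cleavage.

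RefSeq (GRCm38.p6) held a hairpin for 38 of the 39 precursors. All 38 lay on the plus strand of chromosome 12, from base 109571990 to base 109743795, a stretch of 171.8 kb. First came mir-673, then a segment of 9.6 kb from mir-337 to mir-136 (chr12:109585789-109595388), then mir-341 and mir-370, both in introns of Rian, and last a segment of 34.7 kb from mir-379 to mir-410 (chr12:109709060-109743795). Of the members, 5 were antisense to an exon of Rtl1 and 11 lay within the annotated Mirg gene, 4 of them in exons and 7 in introns. Another 20 lay in no other listed gene. The remaining precursor, mir-666, had no entry. The build used to make the tables is not given in the sources used here, and the coordinates are those of RefSeq. The recovered precursor length, taken from the ratio of both deposited tables, equalled the RefSeq hairpin length in 34 of the 34 members that could be compared.

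Mature sequences are shown for most of the members with the highest levels and for some of those on which the comparisons turn, with the seed in capitals. The tables count precursors and do not separate the arms. Both arms are given for mir-127, mir-434, mir-136 and mir-411. For the others a single arm is shown, which need not be the one counted. The members antisense to an Rtl1 exon are represented by mir-127, mir-434 and mir-136.

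miR-127-5p: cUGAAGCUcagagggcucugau
miR-127-3p: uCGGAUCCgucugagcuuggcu
miR-434-5p: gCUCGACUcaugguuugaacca
miR-434-3p: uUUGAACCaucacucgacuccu
miR-136-5p: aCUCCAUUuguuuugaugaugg
miR-136-3p: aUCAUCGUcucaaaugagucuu

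The Rian introns and the long segment from mir-379 to mir-410 gave the following sequences.

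miR-370-3p: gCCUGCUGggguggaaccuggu
miR-411-5p: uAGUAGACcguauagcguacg
miR-411-3p: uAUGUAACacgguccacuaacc
miR-379-3p: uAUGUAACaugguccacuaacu
miR-495-3p: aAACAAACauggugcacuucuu
miR-376b-5p: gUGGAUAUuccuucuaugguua
miR-376c-5p: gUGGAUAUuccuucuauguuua
miR-300-3p: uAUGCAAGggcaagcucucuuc
miR-381-3p: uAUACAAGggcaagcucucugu
miR-382-5p: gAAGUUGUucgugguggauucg
miR-541-5p: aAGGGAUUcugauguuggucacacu
miR-409-3p: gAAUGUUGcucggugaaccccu

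The 72 mature miRNAs of the cluster carried 69 seeds. Just 3 seeds were shared between members: AUGUAAC by miR-379-3p and miR-411-3p, UGGAUAU by miR-376b-5p and miR-376c-5p, and GGUUGUC by miR-410-5p and miR-494-5p. The pair miR-376b-5p and miR-376c-5p differed at 1 of 22 positions, and miR-300-3p and miR-381-3p at 3 of 22, with unlike seeds. Estimated counts of such near copies can divide shared reads. Values that were not whole made up 73.1% of the mir-300 and mir-381 values each, 30.8% of those of mir-376b and mir-376c each, 19.2% of those of mir-136 and 5.77% of those of mir-337, and the split of reads for these 6 members is uncertain.

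A promoter annotated for Meg3, one of the maternally expressed RNAs, is shown for its position in the cluster. RefSeq places this window of 300 bases on the plus strand at chr12:109540746-109541045, upstream of every member that had an entry. Capitals mark the cyclic AMP response element TGACGTCA and the overlapping matches to TATAAA on both strands.

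Meg3 promoter: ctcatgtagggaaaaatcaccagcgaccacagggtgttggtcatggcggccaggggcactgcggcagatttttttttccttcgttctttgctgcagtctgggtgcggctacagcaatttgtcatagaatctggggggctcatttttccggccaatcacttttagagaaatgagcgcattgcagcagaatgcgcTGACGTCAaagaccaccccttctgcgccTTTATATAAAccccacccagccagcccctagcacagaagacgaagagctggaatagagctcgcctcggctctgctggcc

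Read on both strands, TGACGTCA was found in 1.79% of the 32851 promoters of the same length and TATAAA in 13.6%. A second Meg3 window, at chr12:109545148-109545447 and also upstream of every member with an entry, held neither motif. No binding, promoter use or Meg3 level was measured in these libraries.

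Per length, mir-127 (miRBase MI0000154) was the most abundant member. Its mean level was 39290 RPKM (reads scaled to precursor length and library total; SD 10820, n = 52), and it ranked 36 among all precursors. Next came mir-411 (MI0001163) at 7481 ± 2066 RPKM, mir-434 (MI0001526) at 5552 ± 1178, mir-541 (MI0003521) at 3283 ± 1188 and mir-136 (MI0000162) at 2405 ± 649.8 (SD, n = 52). The 3 that followed lay close to one another, mir-300 at 951.4 ± 232.5, mir-410 at 920.4 ± 240.7 and mir-381 at 868.9 ± 278.7. Whether these differ within libraries was not tested. In counts, mir-127 alone gave 57.4% of the reads of the cluster and mir-411 12.9%. Neighbours differed widely in level: mir-434 and mir-136 stood near the top, whereas mir-433, in the same 9.6 kb, had a mean of 31.3 RPKM. In the long segment mir-379 had 450 RPKM, against the 7481 RPKM of mir-411, with which it shares a 3p seed.

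A total of 34 members passed the filter of at least 10 counts in at least 7 libraries in every comparison and were tested. The other 5 were too low: mir-337 had 11 counts over all libraries, mir-412 had 21, mir-539 had 43, mir-323 had 169 and mir-494 had 263. Library totals ran from 1812067 to 5487948 estimated counts, and the cluster took from 0.255% to 0.735% of them. Along the first principal component of all tested precursors, with 45.6% of the variance, 14 male libraries and 1 female library lay above 5. That female was the library labelled Q140 female replicate 2, at 14.95, and the other 13 males lay lower, 8 of them below -5, so this component does not part the sexes. A sex score did, the mean signed log2 level of 67 precursors outside the member list. Lane here stands for the code L1, L3 or L5 in the column names, whose meaning no label states. These 67 precursors were called between the sexes in lane 5 and read in lanes 1 and 3. In those lanes 17 female libraries scored from 0.39 to 0.73, above the 18 male libraries, which ranged from -1.26 to 0.08. The exceptions were Q140 female replicate 2, with -1.33, and Q140 male replicate 4, with 0.57. Both go against their sex label in this score. Counts without them are given for females against males, Q80 against Q20 and Q20 against WT. The comparisons that called no member with these libraries called none without them either. The score of lane 5, from 100 precursors called in lanes 1 and 3, parted the sexes narrowly. There 7 female libraries scored from 0.24 to 0.61 and 8 male libraries from -0.81 to 0.21. The lowest female was Q175 female replicate 4, and the highest male was WT male replicate 1. All WT and Q175 libraries carried the code of lane 5 and all others that of lane 1 or 3. The number that opens each column name followed the same split, so its series and lane 5 cannot be told apart. Lanes 1 and 3 held 3 and 5 libraries of Q20, 6 and 2 of Q80, and 4 and 3 of Q92. For Q111 they held 7 and 0, and for Q140 3 and 4. Allele and lane therefore overlap, most in Q111, and the main fits did not include lane. Differences between WT and Q20 cannot be told apart from this library series, nor differences between a longer allele and its control from housing, since WT and Q20 mice were housed together and the others with their own genotype. Nothing in the labels states that libraries of a group came from separate animals, so p-values may measure only the spread between libraries. Markers of fat and of other cell types were not examined. The tables name precursors by accession, and no source used here pairs the accessions outside the member list with names. Fewer cells of a type and less RNA per cell cannot be told apart in such bulk samples.

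The mean summed level of the cluster was higher in females in every genotype. In TMM-scaled CPM (counts scaled to library size), the 25 female libraries ran from 4081 through a median of 5563 to 7451, and the 27 male libraries from 2872 through 3908 to 5217. The ranges overlapped between 4081 and 5217. The means were 5596 ± 825.4 (SD, n = 25) and 3984 ± 634.3 (SD, n = 27). The difference was also present within each library series, at 5723 ± 552.8 (n = 7) against 3820 ± 575.3 (n = 8) in lane 5 and 5547 ± 919.2 (n = 18) against 4054 ± 659.8 (n = 19) in lanes 1 and 3. The lowest female was the library labelled Q140 female replicate 2 at 4081, below its group mates at 6136 and 6647, and the highest male was the library labelled Q140 male replicate 4 at 5217, above its group mates at 3754 to 4533.

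**Figure D1:**
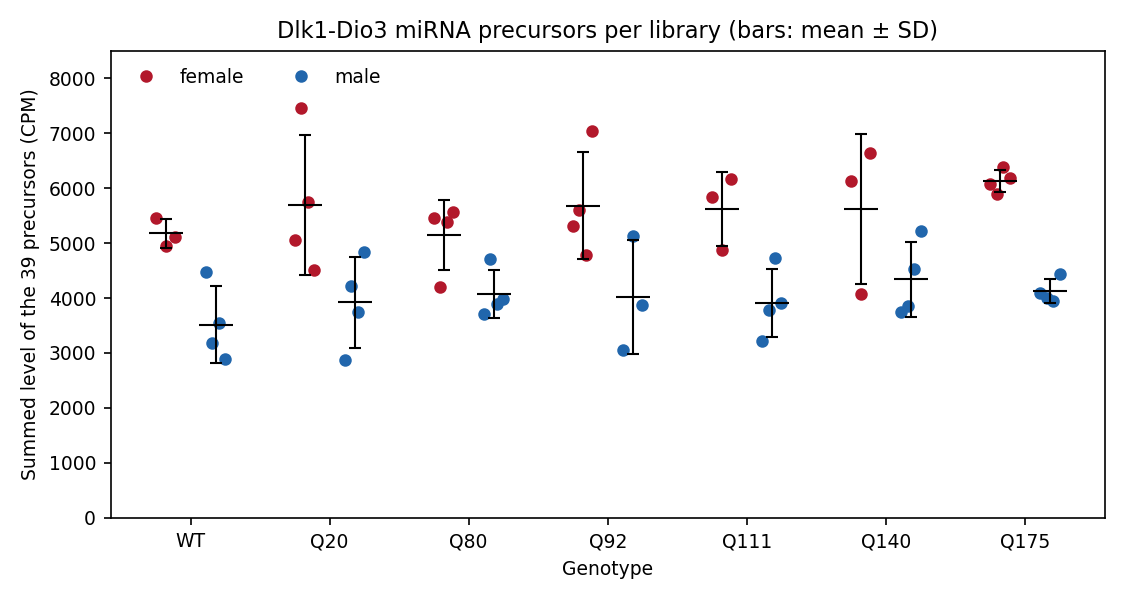
Summed level of the 39 precursors in each library (vertical axis, TMM-scaled CPM) by genotype (horizontal axis) and sex (red for females, blue for males); each point is 1 library and bars give the mean and SD of the group. Female libraries lie between 4081 and 7451 and male libraries between 2872 and 5217.

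Member by member, 30 of the 34 tested were higher in females than in males and 0 were lower (edgeR quasi-likelihood test with genotype as covariate, Benjamini-Hochberg adjusted p under 0.05 over all 356 precursors). Of all precursors, 22.2% were called higher and 26.1% lower, 48.3% in all. All 34 members had a log2 difference above 0, from 0.24 to 1.33 with a median of 0.55, where the median of all tested precursors was -0.06 and 43.8% lay above 0. With limma on log2(RPKM + 1) the split of all calls was 100 higher and 53 lower rather than 79 and 93, and 34 members were called, all higher. Every tested member had a higher median in females, but for 0 members did the lowest female exceed the highest male.

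In the 9.6 kb segment that ends with mir-136, 6 of 6 tested members were called higher in females, with a median log2 difference of 0.56. Of these, the 5 antisense to an Rtl1 exon had a median of 0.54. The level of mir-127 ran from 2360 through a median of 3223 to 4291 CPM in females and from 1468 through 2266 to 2942 CPM in males. The ranges overlapped, and 25 of 25 females lay above the male median. Its log2 difference was 0.54 (SE 0.065, adjusted p = 1.24e-08 by edgeR), a 1.45-fold higher level. For mir-431 the log2 difference was 0.64 (SE 0.11, adjusted p = 4.76e-06). The other abundant members of this segment differed less: mir-434 by 0.24 (SE 0.072, adjusted p = 0.00517), mir-136 by 0.24 (SE 0.079, adjusted p = 0.0125). Within the library series mir-434 kept its call in lane 5 but had an adjusted p of 0.0648 in lanes 1 and 3, and mir-136 had 0.076 in lane 5 and 0.05 in lanes 1 and 3.

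The first precursor of the cluster, mir-673, was higher in females by a log2 difference of 0.87 (SE 0.15, adjusted p = 5.73e-06). Both precursors of Rian introns were called. The level of mir-370 (MI0001165) was low, from 0.834 through 2.8 to 4.55 CPM in females and from 0 through 0.813 to 3.64 CPM in males, and 25 of 25 females lay above the male median. Its log2 difference of 1.33 (SE 0.23, adjusted p = 7.85e-06) was the largest among the 34 members. It rested on 387 counts in all 52 libraries.

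In the long segment from mir-379 to mir-410, 20 of 24 tested members were called higher in females, with a median log2 difference of 0.47. The unplaced mir-666 was called too, at 0.70 (adjusted p = 1.4e-05). Among them mir-541 ran from 187.4 through 349.5 to 653.7 CPM in females and from 153.2 through 221.9 to 356.8 CPM in males. Most of the female libraries lay above the male median, 24 of 25, and the ranges overlapped up to 356.8 CPM. The log2 difference was 0.66 (SE 0.081, adjusted p = 1.61e-08). For mir-409 the female range was 30.8 through 48.1 to 77.3 CPM and the male range 14.2 through 27.3 to 50.8 CPM, a log2 difference of 0.77 (SE 0.096, adjusted p = 1.99e-08), with 25 of 25 females above the male median. The other named calls of this segment were mir-668 with a log2 difference of 0.78, mir-667 with 0.75, mir-485 with 0.58 and mir-381 with 0.56, with adjusted p from 4.47e-07 to 2.14e-06. Of the remaining members with high levels, mir-411 differed by 0.42 (adjusted p = 0.000111), mir-410 by 0.41 (adjusted p = 0.000145) and mir-300 by 0.39 (adjusted p = 1.06e-05). The 4 that did not pass were mir-487b with a log2 difference of 0.36 (adjusted p = 0.0522), mir-376a with 0.32 (0.104), mir-369 with 0.27 (0.0733) and mir-376c with 0.24 (0.101).

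**Figure D2:**
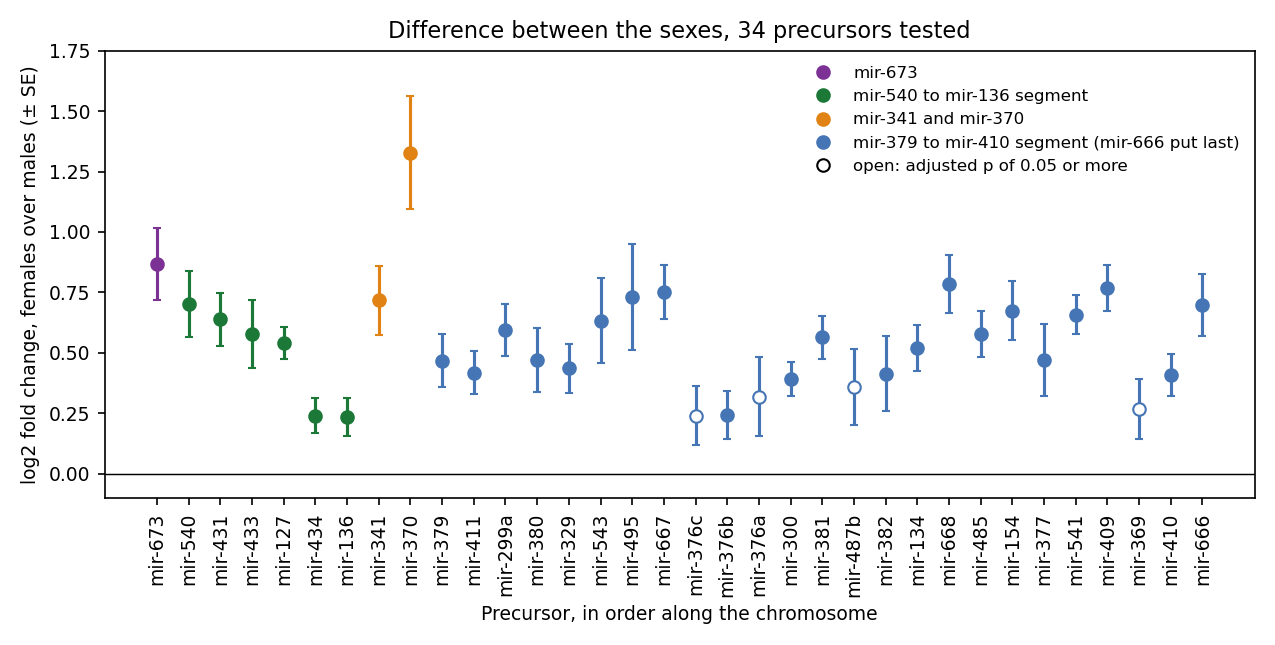
Female minus male log2 difference of each tested member (edgeR, bars give the SE), ordered by position along chromosome 12. All 34 estimates lie above 0, from 0.24 for mir-136 to 1.33 for mir-370.

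Fitted within the lane 5 series, 27 of 34 members were called higher in females, and within lanes 1 and 3 it was 25 of 34, with 22 called in both and 30 in either. Outside the member list, 67 precursors were called in either direction in lane 5 and 100 in lanes 1 and 3. Without the 15 libraries above 5 on the first principal component, 30 members were called, 28 of them also called in all libraries, and without both Q140 libraries 32 were called. Leaving out 1 library at a time gave from 28 to 32. For the fits with libraries left out, calls among all precursors are not given here. In the fit of all libraries 48.3% of all precursors were called. Set out by genotype, female means were higher for 34 of 34 members in WT, 33 in Q20, 32 in Q80, 31 in Q92, 34 in Q111, 28 in Q140 and 33 in Q175, while among all precursors the share higher in females ran from 41% to 57.3%. The direction was the same in all 7 genotypes for 24 members, in 6 for 8 members, in 5 for 1 and in 4 for 1, mir-376c. These counts by genotype keep both Q140 libraries that go against their sex label.

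**Figure D3:**
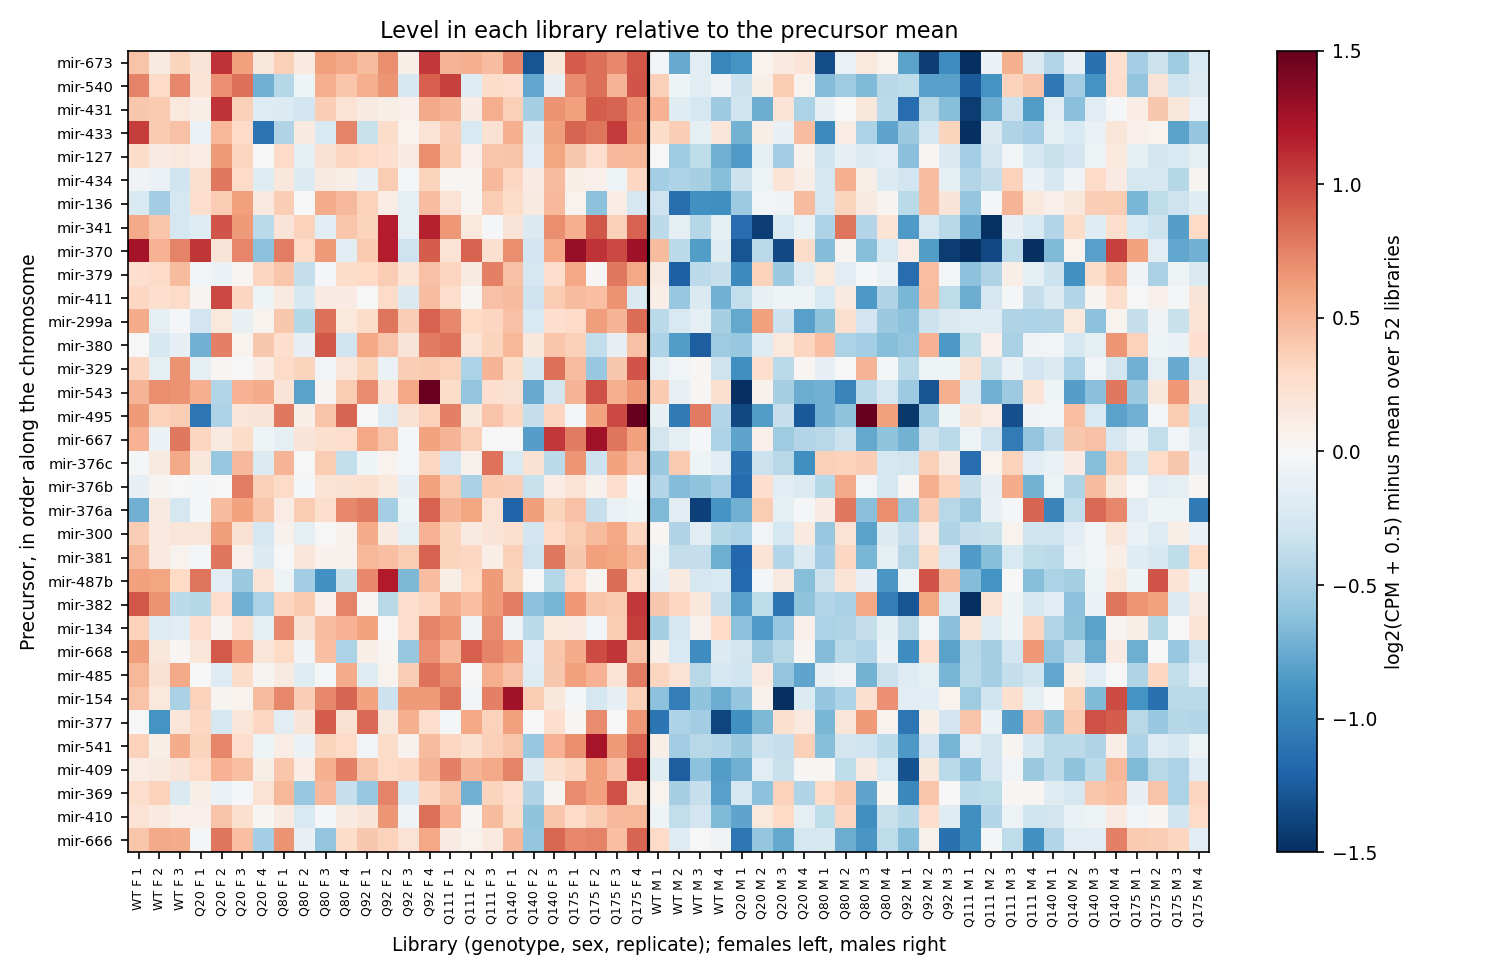
Level of each of the 34 tested members (rows, in order along chromosome 12, with mir-666, which had no RefSeq position, last) in each of the 52 libraries (columns, females left and males right), as log2(CPM + 0.5) minus the mean of that member over all libraries. Female columns are mostly red (above the mean) and male columns mostly blue (below it), and the column Q140 F 2 is mostly blue.

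Whether the female to male difference varied with the Htt allele was tested by interaction. Between Q175 and WT, 0 of 34 members had a changed sex difference (edgeR, 0% of all 308 precursors called). An unadjusted p under 0.05 was found for 0 members and for 16 of all 308 precursors. The lowest p was that of mir-380, a log2 difference of differences of -0.77 (SE 0.39, adjusted p = 0.787). Over the repeat length from Q20 to Q140 it was 0 of 34 as well (0% of all 345 precursors called). Here 0 members had an unadjusted p under 0.05, against 18 of all 345 precursors, and mir-543 was lowest at -0.86 per 100 repeats (SE 0.60, adjusted p = 0.861). DESeq2 and limma called 0 members in both. The repeat-length values keep both Q140 libraries that go against their sex label, which lie at the longest repeat of that fit. Without them no member was called either. For mir-127 the interaction with Q175 was -0.02 (SE 0.19, adjusted p = 0.964).

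Q175, the longest allele, was compared with WT within the lane 5 series. None of the 34 members passed the test (edgeR with sex as covariate, 4.55% of all 308 precursors called, 0.649% higher and 3.9% lower). An unadjusted p under 0.05 was found for 10 of 34 members and for 74 of all 308 precursors. The summed level ran from 3954 through a median of 5168 to 6383 CPM in the 8 Q175 libraries and from 2882 through 4478 to 5463 CPM in the 7 WT libraries. The groups overlapped over most of their range. The members' log2 differences ran from -0.15 to 0.64, 29 of 34 above 0, with a median of 0.23 against -0.02 for all precursors. Of all 308 precursors 47.4% lay above 0. Fitted in females alone the members' median was 0.19 (27 tested), and in males alone 0.31 (26 tested).

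Within that comparison mir-376b had the lowest p, with 8.15 through 9.51 to 13.5 CPM in WT and 11.7 through 13.2 to 15.9 CPM in Q175. Every Q175 library lay above the WT median, 8 of 8. Its log2 difference was 0.34 (SE 0.11, adjusted p = 0.0639 by edgeR). Its values were not all whole, and the split of its reads is uncertain. Next was mir-380 at 0.64 (SE 0.21, adjusted p = 0.0644), at a low level of 1.27 through 2.54 to 3.66 CPM in WT and 2.74 through 3.95 to 5.14 CPM in Q175. The abundant mir-434 had a log2 difference of 0.28 (SE 0.095, adjusted p = 0.0794). DESeq2 called 2 members higher, mir-434 (adjusted p = 0.0126) and mir-410 (adjusted p = 0.0358). The count hung on single libraries: without WT male replicate 1, 7 members were called higher (mir-431, mir-127, mir-376b, mir-541, mir-409, mir-369 and mir-410), and without Q175 female replicate 4 it was 1, mir-376b. How many of all precursors DESeq2 or these fits called is not given here, so these member counts have no share beside them.

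**Figure D4:**
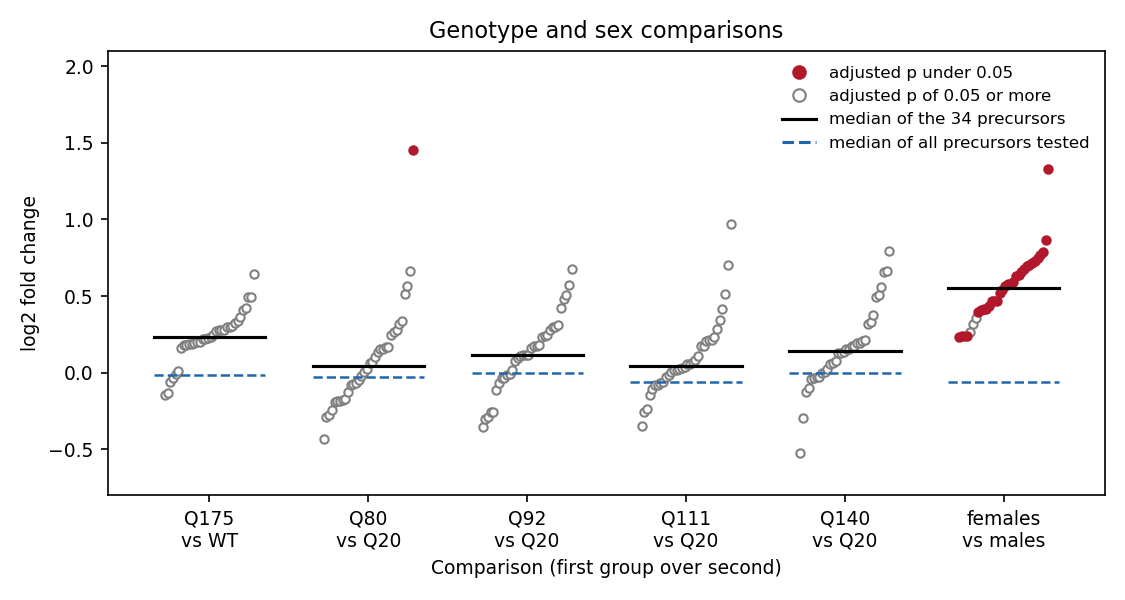
Log2 fold changes of the 34 tested members in each comparison (points, 1 per member, filled where the adjusted p is under 0.05), with the members' median (solid line) and the median of all precursors tested (dashed line). In females against males all 34 points lie above 0 and 30 are filled; in Q175 against WT 29 lie above 0 and none is filled; in Q80 the filled point is mir-495 at 1.45.

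The other knock-in alleles were compared with Q20, an allele in the normal range of repeat length, in 1 fit of the 37 libraries of lanes 1 and 3 with sex as covariate. In Q80 1 of 34 members was called higher and 0 lower (1.45% of all 345 precursors called). This was mir-495 (MI0004639), with 0.332 through 0.872 to 1.95 CPM in Q20 and 0.8 through 2.58 to 5.96 CPM in Q80. Of the Q80 libraries 7 of 8 lay above the Q20 median, and the highest was Q80 male replicate 3. In reads this was 1 to 7 counts per library in Q20 and 2 to 22 in Q80. The log2 difference was 1.45 (SE 0.39, adjusted p = 0.0483 by edgeR). The call was lost in 24 of the 30 fits without 1 library in which mir-495 could be tested, with adjusted p from 0.0192 to 0.141 over those fits, and the member fell under the filter in the 7 others. It was also lost with lane as a covariate (adjusted p = 0.129) and with DESeq2 size factors (0.0551).

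Q92, Q111 and Q140 gave no call among the members. In Q92 0 of 34 passed (4.06% of all precursors called, 2.32% higher and 1.74% lower). An unadjusted p under 0.05 was found for 1 member and for 62 of all 345 precursors. The lowest p was that of mir-487b, with a log2 difference of 0.68 (SE 0.30, adjusted p = 0.243). In Q111 0 of 34 passed (0% of all precursors called), and 3 had an unadjusted p under 0.05, against 56 of all 345 precursors. Lowest was mir-134, a miRNA studied in rat neurons for its effect on dendritic spines, at 0.51 (SE 0.16, adjusted p = 0.216). Its levels were 6.97 through 12.5 to 15.7 CPM in Q20 and 11.4 through 15.1 to 21.6 CPM in Q111, with overlap. In Q140 0 of 34 passed (0.29% of all precursors called), and 3 had an unadjusted p under 0.05, against 65 of all 345 precursors. Lowest was mir-154 at 0.67 (SE 0.25, adjusted p = 0.184), with 2.67 through 8.93 to 12.2 CPM in Q20 and 5.27 through 11 to 21.3 CPM in Q140. DESeq2 called mir-154 in Q140 (adjusted p = 0.0488) and 0 members in Q92 and Q111. The Q140 values keep both libraries that go against their sex label. These 4 comparisons share the Q20 libraries. The medians of the members' log2 differences were 0.04 in Q80, 0.12 in Q92, 0.05 in Q111 and 0.14 in Q140.

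As a slope over repeat length from Q20 to Q140, 0 of 34 members passed (0.29% of all precursors called). An unadjusted p under 0.05 was found for 2 members and for 56 of all 345 precursors. The lowest p was again that of mir-154, with a slope of 0.49 log2 units per 100 repeats (SE 0.20, adjusted p = 0.166). DESeq2 called 0 members. Both Q140 libraries that go against their sex label were kept in the slope. For mir-127 the slope was 0.10 (SE 0.096, adjusted p = 0.669). Its mean level was 2452 CPM in WT, 2677 in Q20, 2664 in Q80, 2889 in Q92, 2662 in Q111, 2806 in Q140 and 2924 in Q175, with SDs from 473.2 to 824.4 CPM, so neighbours in this order did not differ beyond their spread.

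Q20 against WT compares an allele of normal length with none, across the library series. Of all precursors 34.3% were called, 19.9% higher and 14.3% lower. Among the members 2 were higher and 1 lower. The level of mir-136 was 64.95 through 99.6 to 122.4 CPM in WT and 98.2 through 165.1 to 220.3 CPM in Q20, a log2 difference of 0.76 (SE 0.15, adjusted p = 5.07e-05 by edgeR), with 7 of 8 Q20 libraries above the WT median. By series the mean was 108.8 ± 25.8 CPM in the 15 libraries of lane 5 and 165.3 ± 31 CPM in the 37 of lanes 1 and 3 (SD), with Q175 at 119.7 CPM and WT at 96.2 CPM in the first and means from 157.5 to 173.7 CPM for the 5 genotypes of the second. The neighbouring mir-434 was higher by 0.50 (SE 0.13, adjusted p = 0.00243), with 400.4 ± 62.8 CPM in WT and 573.7 ± 146.9 CPM in Q20. For mir-382 the levels were 4.17 through 7.1 to 11.2 CPM in WT and 2.37 through 3.71 to 6.81 CPM in Q20, where 0 of 8 libraries lay above the WT median, and its log2 difference was -0.91 (SE 0.29, adjusted p = 0.0104). In females alone and in males alone, mir-136 was the member still called, while adjusted p was 0.0861 and 0.095 for mir-434 and 0.122 and 0.111 for mir-382. The split of these calls moved with the scaling: DESeq2 size factors gave 2 members higher and 4 lower, and limma on log2(RPKM + 1) gave 1 higher and 7 lower, where all calls went from 71 higher and 51 lower to 41 and 86.

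With the mean of each group removed, members varied together from library to library. Among the 15 members with a mean of at least 10 CPM, the 105 pairs had a median Pearson r of 0.52 over 52 libraries, from -0.0036 to 0.81, and 99% were above 0. The 25878 pairs of the 228 other precursors at that level had a median r of 0.0084, and pairs of a member with another precursor -0.0047. The highest pair was mir-410 with mir-381, at 0.81. Against the mean of the other members, mir-127 had the highest r at 0.91, then mir-410 with 0.83, and mir-134 had the lowest at 0.29. The 5 precursors outside the member list that followed the members' mean most had r from 0.54 to 0.63. No source used here gives their names, so these 5 and the other precursors may include further precursors of the locus. These values describe libraries that share depth, lane and scaling, and no test was made of them. Both Q140 libraries that go against their sex label were kept, with the means of their labelled groups removed.

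**Figure D5:**
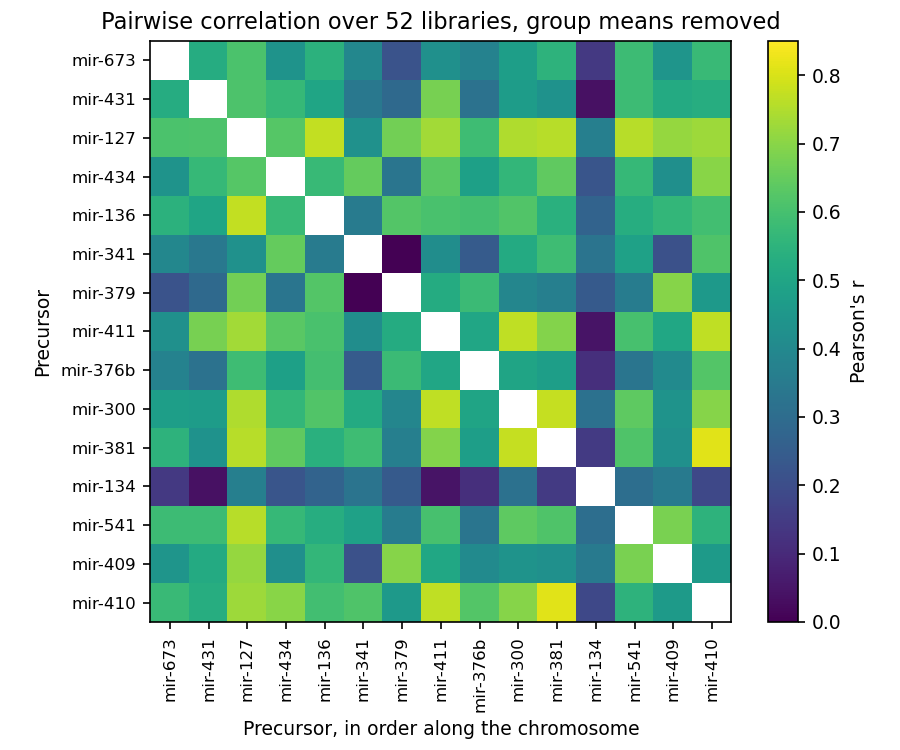
Pearson r over 52 libraries, after removal of group means, for each pair of the 15 members with a mean of at least 10 CPM, in order along the chromosome (colour scale, with 0 the darkest). The pair mir-410 and mir-381 is brightest at 0.81, and the row of mir-134 is dark throughout.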

How the data were processed

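The authors deposited estimated counts for 1187 precursors in 52 libraries. They also deposited RPKM values for these, scaled per precursor length and library total. Per the labels' protocols, total RNA (Qiagen miRNeasy) was enriched and turned into Illumina libraries. Per the submitters' processing notes, CASAVA 1.8.2 was among the tools. Not given in the sources used here are the aligner, genome build, miRBase release and counter. Of the deposited estimated counts, 89.1% were whole within 1e-04. They were rounded before any count test. The design had assumed whole counts. The 39 member names come from the list that defines the cluster, and members and lists were chosen with earlier results of these data known. Marker lists of other cell types could not be matched and were not tested.

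Differences were tested in R 4.3.3 with edgeR 4.0.16 (robust quasi-likelihood F test, TMM scaling) on precursors that reached 10 counts in 7 or more libraries of the fit, with Benjamini-Hochberg adjustment over all precursors tested and a threshold of 0.05. WT and Q175 were fitted together (15 libraries), Q20 to Q140 together (37 libraries), and all 52 libraries for females against males and Q20 against WT. CPM values are edgeR's TMM-scaled counts. The alternatives were DESeq2 1.42.0, its size factors in edgeR, a stricter filter of 50 counts or none, log2(RPKM + 1) values in limma 3.58.1, a replicate block, lane as a covariate, each sex or library series alone and single libraries left out. Library totals of 1812067 to 5487948 estimated counts set the precision for low members. The fits were tested on simulated data with known changes.

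Named members are the 8 with the highest mean CPM, up to 10 called by adjusted p in each comparison, and the one with the lowest p where none was called. Other members named were chosen after their values were seen.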

Additional observations from a re-analysis of the deposited data

Results flagged for a closer look

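In groups of 4 libraries, 11 member values stood farther from the rest of their group than Dixon's 95% critical value allows, of 230 tests over 23 members, and chance flags about 1 in 20. Levels are in CPM. In the library labelled Q140 male replicate 4, which also stood apart in the summed level, mir-541 was 298.2 (the others 204 to 212.4) and mir-409 was 50.75 (23.42 to 27.25). In WT male replicate 1, the library that moved the Q175 count most, mir-541 was 297.5 (194.1 to 208.1). High values were also those of mir-431 in Q92 female replicate 4 at 21.51 (15.12 to 15.84), mir-380 in Q80 male replicate 1 at 5.198 (2.167 to 2.509), mir-300 in Q111 male replicate 3 at 75.92 (56.96 to 59.44) and mir-668 in Q111 male replicate 4 at 8.603 (3.604 to 4.257). Low values were those of mir-411 in Q20 male replicate 1 at 456.6 (546.9 to 565.4) and in Q80 female replicate 2 at 500.6 (642.4 to 649.8), of mir-543 in Q20 female replicate 2 at 1.572 (3.516 to 3.613) and of mir-154 in Q92 female replicate 2 at 6.818 (13.38 to 13.75). No cause of these values was tested.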

How the results depend on the processing

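The count of members higher in females was 30 and ran from 28 to 34 under the alternatives, except within the lane 5 series (27), within lanes 1 and 3 (25) and with a minimum of 50 counts, where 17 of the 19 members still tested were called. Counts for Q175 against WT went from 0 to 2 with DESeq2 and to 2 with a minimum of 50 counts, and ran from 0 to 7 with single libraries left out. The call in Q80 fell from 1 to 0 with a minimum of 50 counts, no filter, DESeq2 size factors, the replicate block, lane as a covariate, females alone, males alone and without the 2 Q140 libraries that go against their sex label, and ran from 0 to 1 with single libraries left out. In Q140 DESeq2 called 1. For Q20 against WT the count of 3 became 6 with DESeq2 size factors, 5 with DESeq2, 8 with limma on log2(RPKM + 1), 1 in females alone, 1 in males alone, 5 without the libraries above 5 on principal component 1 and 5 without the 2 Q140 libraries, and ran from 3 to 6 with single libraries left out. No direction of a named member reversed in any setting run. The causes were not tested. For most of these settings the calls among all precursors are not given beside the member counts. With limma on log2(RPKM + 1) the median log2 difference of all precursors moved from 0.11 to -0.18 for Q20 against WT and from -0.03 to 0.21 for Q80 against Q20. Leaving out the libraries above 5 on principal component 1 and leaving out the 2 Q140 libraries were chosen after seeing the data, and the first left no Q175 male for the interaction of sex with Q175, which could not be fitted. Libraries that share a replicate number had a median r near 0 (-0.0096, -0.0086, -0.06 and 0.0076 for numbers 1 to 4). Whether the number pairs some of the libraries was not tested, and the main fits did not use it. The replicate block changed the count in Q80 from 1 to 0 and left the sex count at 30. Depth limits the 5 untested members and those at a few CPM.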
